A study of Mus musculus with 12 samples.

Results

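A set of 9 genes named for long introns, a role in neurons and binding by TDP-43 was followed in the spinal cord of mice with Tardbp deleted in astrocytes: Nrxn3, Nlgn1, Kcnd2, Cadps, Fgf14, Ntrk3, Kcnip2, Dlgap1 and Grik2. Members were chosen by gene symbol and not by a cut on their measured values, though with earlier results of these data known. All 9 were found among the 36121 genes of the table. All 9 passed a filter on low values, which asked for 1 TPM or more on average over the 12 mice and left 15259 genes. TPM is a level scaled for transcript length and library. No member differed in level between the genotypes at an adjusted p under 0.05.

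The cords came from C57BL6 mice that were 3 months old, 4 per genotype. Control mice had 2 floxed copies of Tardbp, the gene of TDP-43, and no Cre. The cHet mice had Gfap-Cre with a genotype of Tardbp-fl/+, and the cKO mice had Gfap-Cre with Tardbp-fl/fl. Gfap-Cre is a recombinase under the control of Gfap, a gene of astrocytes, so the deletion is aimed at other cells than the neurons for which the 9 genes are known. Which cells had recombined was not measured here. There was no group with Cre and no floxed allele. Each library was made from RNA of whole spinal cord tissue, in which fewer cells of a type and less RNA per cell cannot be told apart, and which cells held the 9 messages could not be checked. Each group had 2 mice labelled male and 2 labelled female.

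TDP-43 is a nuclear RNA-binding protein that prefers UG-rich stretches, many of them in introns, and in neurons it is known for keeping up the messages of genes with very long introns and for repressing cryptic exons. The 9 genes serve the synapse and the excitability of neurons: adhesion across the cleft, release of dense-core vesicles, glutamate receptors and their scaffold, a fast potassium current and its subunit, a sodium channel modulator, and the receptor of a neurotrophin. The level of a gene does not show whether an exon was included or skipped.

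Gene models were checked against the label in the GENCODE M21 annotation of GRCm38. The longest annotated intron measured 540 kb in Fgf14, 497 kb in Kcnd2, 473 kb in Nlgn1 and 464 kb in Nrxn3. These 4 introns were each exceeded in at most 0.286% of the 15057 tested genes that had a gene model, whose median was 8.39 kb. Genes without an intron were included in that median. The longest intron of Dlgap1 measured 230 kb, that of Grik2 205 kb, that of Cadps 107 kb and that of Ntrk3 95.6 kb. Kcnip2 did not have a long intron in this sense: its longest measured 20.0 kb, and 28.2% of tested genes had a longer one. Thus 7 of the 9 members had an intron of at least 100 kb, against 5.39% of tested genes. In Nrxn3, Kcnd2, Cadps, Fgf14 and Kcnip2 the longest intron was the first of its transcript, whereas in Nlgn1 it was intron 5 of 7 and in Ntrk3 intron 12 of 16.

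Sequence runs that TDP-43 prefers were looked for in the annotated transcripts, since introns were not searched here. The motif was TG repeated at least 6 times without interruption, TGTGTGTGTGTG, on the sense strand, and 13.3% of 15046 tested genes had such a run in a transcript. Among the members, Ntrk3 and Grik2 had one, both in the 3' UTR of a protein-coding transcript. The run of Ntrk3 spanned 50 bases at chr7:78187161-78187210 on the minus strand, and 1.0% of tested genes had one as long. The run of Grik2 spanned 44 bases at chr10:49096662-49096705 on the minus strand, and 2.18% of tested genes had one as long. Their first 24 bases are shown in capitals after 3 preceding bases, 5′ to 3′, as the candidate contact with TDP-43 in the mature message.
Ntrk3, chr7:78187187-78187213: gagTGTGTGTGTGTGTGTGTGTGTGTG
Grik2, chr10:49096682-49096708: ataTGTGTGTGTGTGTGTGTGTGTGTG
The other 7 members had no run of these letters in their annotated transcripts. A match describes letters and does not show binding, which was not measured.

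Between 15188 and 15384 genes reached 1 TPM in a library. Read depth is unknown, because TPM does not keep it. One label was at odds with the data: the 4 Y-linked genes Kdm5d, Uty, Ddx3y and Eif2s3y summed to 2.49 TPM in control replicate 1, labelled male, against 93.6 to 120 TPM in the other 5 libraries labelled male and 2.48 to 4.27 TPM in those labelled female. The comparisons of genotypes and of sexes were therefore also fitted without it, and the values that lost a call are given beside the result. All 5 cord Hox markers were found. Their sum was 331 to 342 TPM in control, 340 to 364 TPM in cHet and 363 to 391 TPM in cKO cords. Of these 5, 1 was called higher in cKO than in control cords. The 5 forebrain markers summed to at most 6.59 TPM. The summed level of 15 neuron markers was 5646 to 5923 TPM in control, 5787 to 6133 TPM in cHet and 5913 to 6254 TPM in cKO mice. Of these 15, Rbfox3, Syn1 and Slc32a1 were called higher in cKO than in control cords and none was called lower, and none of the 15 was at 0. The sum of 6 oligodendrocyte markers was 20463 to 21403 TPM in control and 17060 to 19430 TPM in cKO cords, and 4 of the 6 were called lower. The 8 astrocyte markers summed to 3174 to 3392 TPM in control and 3774 to 4132 TPM in cKO cords, but moved both ways: Slc1a2, Gfap and Aldoc were called higher, and Slc1a3 (-33.6%) and Gja1 (-16.5%) lower. The 5 microglia markers summed to 166 to 176 TPM in control and 202 to 214 TPM in cKO cords, with 4 of the 5 called higher. Without control replicate 1 the calls of Gfap and of the microglia markers Tmem119 and Csf1r were lost (adjusted p = 0.0647, 0.0637 and 0.0634). Mitochondrially encoded genes took 16.0% to 18.3% of the TPM in control and 19.0% to 20.4% in cKO libraries, and the summed TPM of a library was 954895 to 978621 in control and 1017855 to 1048381 in cKO cords. The part of these shifts in the member values was not tested.

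Tardbp itself was measured at 181, 167, 169 and 166 TPM in the control mice, at 178, 173, 172 and 158 TPM in the cHet mice and at 150, 150, 151 and 140 TPM in the cKO mice. All 4 cKO cords lay below all other cords. The level fell by 13.2% in cKO against control (95% confidence interval -18.6% to -7.47%; limma, adjusted p = 0.0113) and the exact two-sided permutation test over 70 assignments gave p = 0.0286, the smallest it can give. The cHet cords differed from control by -0.205% (interval -6.37% to 6.37%, adjusted p = 0.984). Most of the Tardbp message of whole cord was thus still present in cKO mice. Without control replicate 1 the change was -11.5% (interval -17.1% to -5.61%, adjusted p = 0.0319). Sources used here do not name the floxed exons, and reads outside them would still count.

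In the 12 cords the members spanned an order of levels. Cadps was the highest, at 140 to 154 TPM in single mice. Nrxn3 at 51.3 to 56.4 TPM and Ntrk3 at 47.2 to 55.1 TPM followed and overlapped each other. Dlgap1 stood alone at 33.3 to 38.1 TPM, and below it followed Kcnd2, Fgf14, Grik2, Nlgn1 and Kcnip2, with means over 12 mice of 17.6, 15.8, 14.9, 14.1 and 13.0 TPM. Each of these 5 overlapped its neighbours in the order, but all values of Kcnd2, from 16.3 to 18.4 TPM, lay above all those of Nlgn1 (12.9 to 15.6 TPM) and of Kcnip2 (10.3 to 14.4 TPM).

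**Figure D1:**
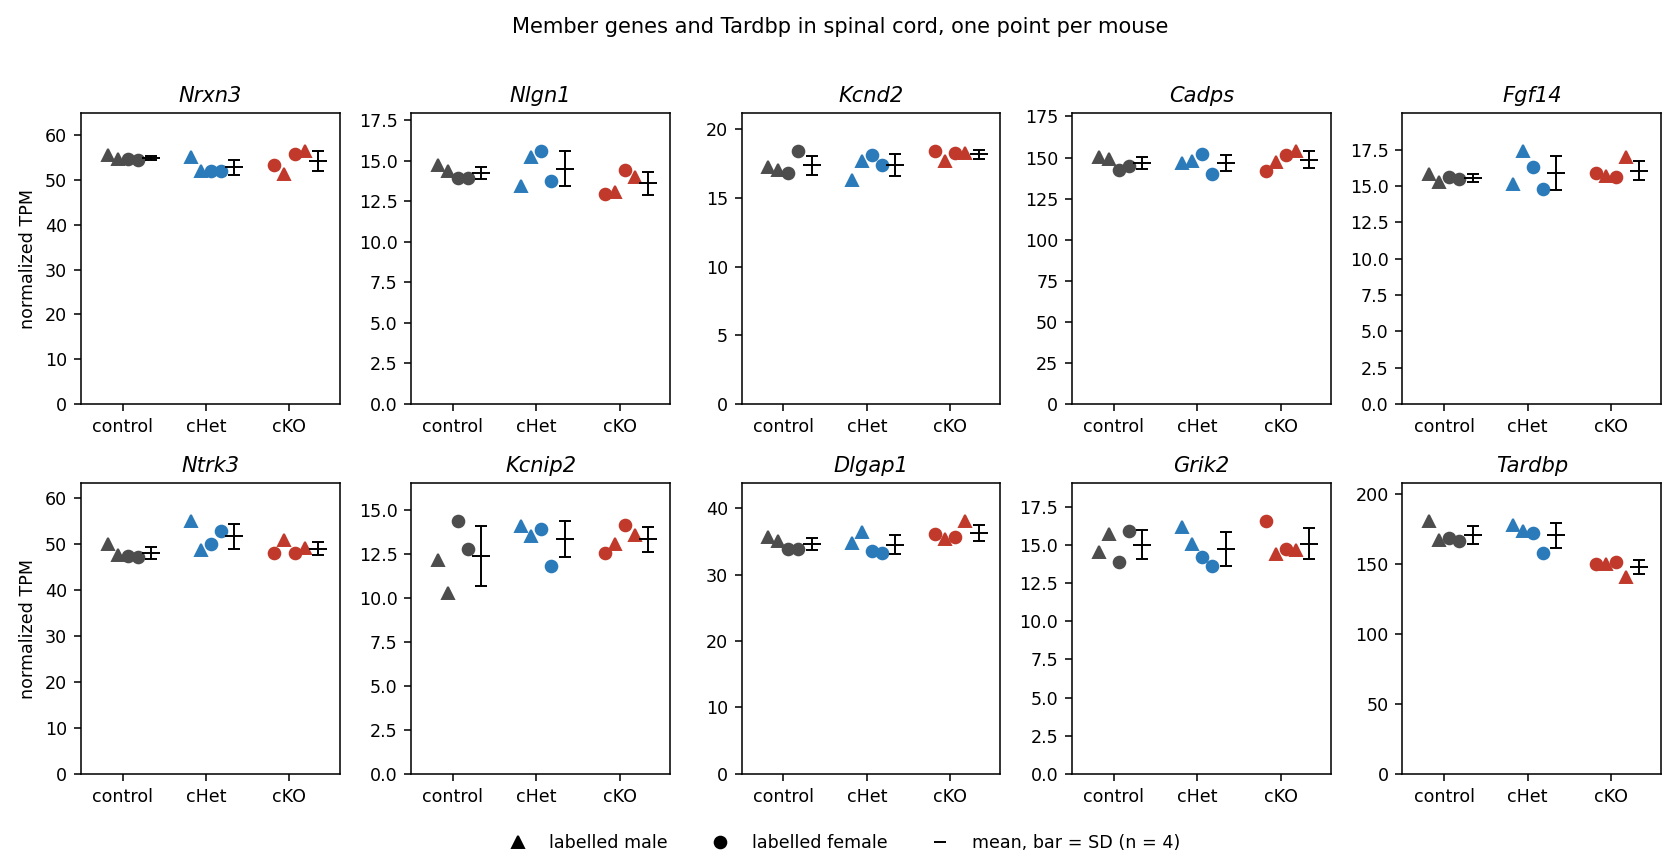
Normalized TPM (vertical axis, from 0) of each member gene and of Tardbp in control, cHet and cKO cords, with one point per mouse, triangles for mice labelled male, circles for mice labelled female, and the mean with SD of 4 mice beside them. The 3 groups overlap for every member, and the cKO points of Tardbp, at 140 to 151 TPM, lie below all others.

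The first question of the design is whether deletion of both Tardbp alleles in Gfap-Cre cells changed these genes. Of all tested genes, 9.0% were called in cKO against control (878 higher, 496 lower), and 0 of the 9 members were called, nor did any of them pass an unadjusted p of 0.05, which 22.8% of all genes did. The fitted change was above 0 in 7 members, and its median was 0.028 on the log2 scale, against 0.014 over all tested genes. The direction count depended on the scaling: rescaling without mitochondrially encoded genes moved the median of all genes to -0.037 and left 3 members above 0, with a member median of -0.024. That rescaling also set every library to the same sum. As deposited, libraries summed to 954895 to 978621 TPM in control, 983452 to 1023987 TPM in cHet and 1017855 to 1048381 TPM in cKO cords. The mitochondrial share was higher in all 4 cKO libraries than in all control libraries, as given above. In cHet libraries it was 16.4% to 18.4%. In cHet against control the rescaling moved the median of all genes from 0.013 to -0.039. The part of the sums and of the share in these shifts was not tested. No member had groups without overlap, a pattern shown by 17.1% of tested genes. Over the 9 members the 95% intervals reached from 12.4% lower, for Nlgn1, to 23.5% higher, for Kcnip2. They were narrower for others, from -3.94% to 6.62% for Cadps and from -6.42% to 4.21% for Nrxn3.

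For cHet against control 0.00% of tested genes were called, although 1724 (11.3%) had an unadjusted p under 0.05. Among the members 0 were called and 1, Ntrk3, was under that unadjusted level. The fitted change was above 0 in 5 members, and the intervals reached from 11.3% lower to 23.5% higher. Groups without overlap were seen in 6.23% of tested genes and in 0 of the 9 members. The third comparison, cKO against cHet, called 5.01% of tested genes and 0 members, with groups that did not overlap in 11.5% of tested genes and in 0 members. Its member intervals reached from 13.8% lower to 14.6% higher. The comparisons share mice, and their values are set side by side for each gene.

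**Figure D2:**
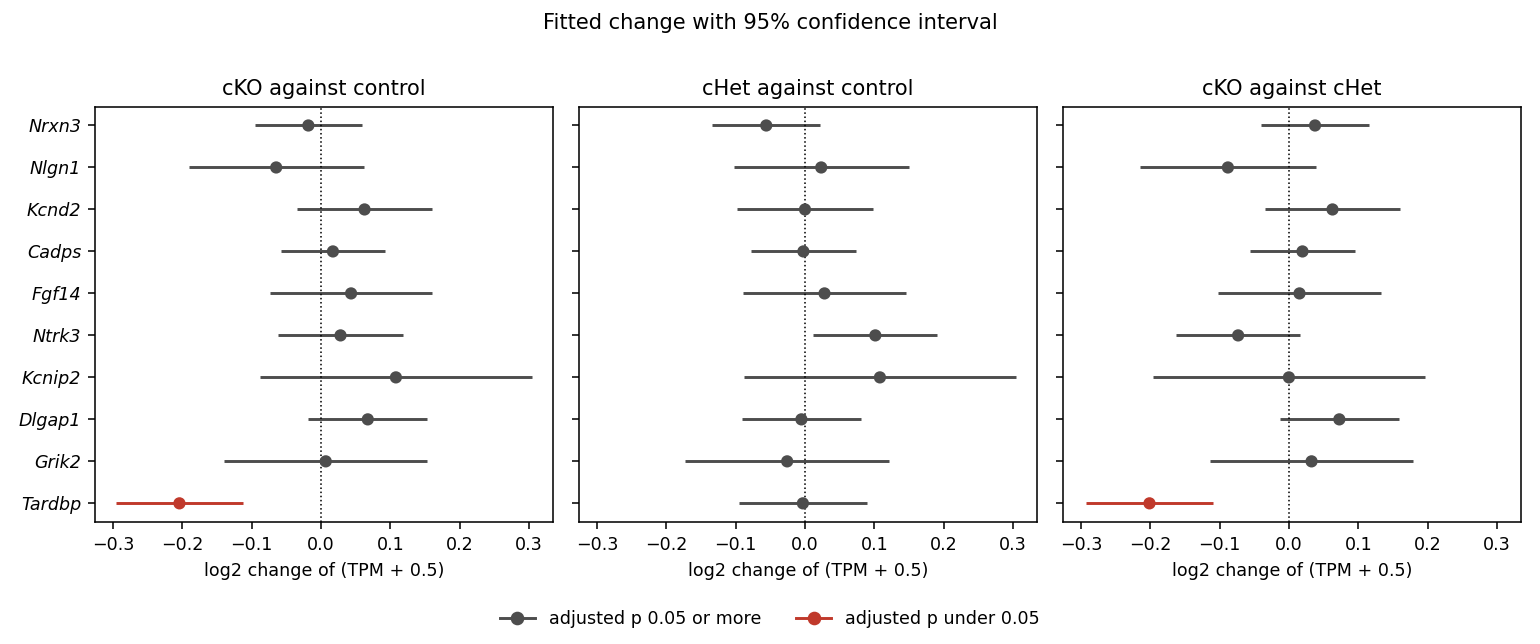
Fitted log2 change of (TPM + 0.5) on the horizontal axis, with its 95% confidence interval from limma, for each member and Tardbp in the 3 comparisons of genotypes. The intervals of 26 of the 27 member changes include 0, the exception being Ntrk3 in cHet against control, and only Tardbp is called, in cKO against control and against cHet.

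The adhesion pair comprised Nrxn3, a presynaptic neurexin, and Nlgn1, a neuroligin that binds neurexins from the postsynaptic side of excitatory synapses. Nrxn3 was measured at 55.6, 54.7, 54.7 and 54.4 TPM in the control mice, at 55.2, 52.1, 52.0 and 51.9 TPM in the cHet mice and at 53.4, 51.3, 55.7 and 56.4 TPM in the cKO mice. The control values were close together, 3 of the cHet values lay below all of them, and the cKO values spread to both sides. Nrxn3 differed by -1.25% in cKO against control (interval -6.42% to 4.21%, adjusted p = 0.824) and by -3.79% in cHet against control (interval -8.83% to 1.53%, adjusted p = 0.598). Nlgn1 was measured at 14.7, 14.3, 13.9 and 14.0 TPM in the control mice, at 13.5, 15.3, 15.6 and 13.8 TPM in the cHet mice and at 12.9, 13.1, 14.4 and 14.0 TPM in the cKO mice. Its lowest values were those of 2 cKO mice, and its highest those of 2 cHet mice. The change of Nlgn1 was -4.38% in cKO against control (interval -12.4% to 4.38%, adjusted p = 0.570) and -5.92% in cKO against cHet (interval -13.8% to 2.70%, adjusted p = 0.477).

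The 11 relatives and partners of this pair that were measured included Nrxn2, Nlgn2 and Nlgn3, the LRRTM ligands of neurexins and the cerebellins that bridge them to postsynaptic receptors. None was called in any comparison of genotypes. The direction of their fitted changes in cKO against control was mixed, with a median of -0.014 on the log2 scale.

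Kcnd2 encodes Kv4.2, the pore of a fast A-type potassium current in dendrites, and Kcnip2 encodes KChIP2, a calcium-binding subunit of Kv4 channels. Kcnd2 was measured at 17.2, 17.0, 16.8 and 18.4 TPM in the control mice, at 16.3, 17.7, 18.1 and 17.4 TPM in the cHet mice and at 18.4, 17.7, 18.2 and 18.3 TPM in the cKO mice. All 4 cKO values lay above 3 of the 4 control values, and the highest control value was above all of them. The change was 4.46% in cKO against control (interval -2.39% to 11.8%, adjusted p = 0.457) and 4.45% in cKO against cHet (interval -2.39% to 11.8%, adjusted p = 0.522). In cHet against control it was 0.0043% (interval -6.55% to 7.01%).

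Kcnip2 was measured at 12.2, 10.3, 14.4 and 12.8 TPM in the control mice, at 14.1, 13.5, 13.9 and 11.8 TPM in the cHet mice and at 12.5, 13.0, 14.1 and 13.6 TPM in the cKO mice. Both the lowest and the highest of the 12 values were from control mice, 1.40-fold apart, the widest span of any member. The change was 7.78% in cKO against control (interval -5.95% to 23.5%, adjusted p = 0.536) and 7.78% in cHet against control (interval -5.95% to 23.5%, adjusted p = 0.700). Kcnip2 therefore had the least precise estimate of the 9.

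None of the 7 other Kv4 channels and subunits measured was called. Kcnip3, whose product KChIP3 is also the calcium sensor DREAM, was measured at 49.3, 46.5, 45.7 and 50.2 TPM in the cKO mice, against 37.3 to 42.3 TPM in control and 32.2 to 43.5 TPM in cHet mice. All 4 cKO values were above the 8 others, yet the change of 18.3% against control (interval 4.16% to 34.4%) had an adjusted p of 0.1004, and that of 20.2% against cHet (interval 5.82% to 36.6%) one of 0.105. Kcnip3 was singled out after its values were seen.

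Fgf14 encodes an FGF homologous factor, which stays in the cell and modulates voltage-gated sodium channels at the axon initial segment. It was measured at 15.8, 15.3, 15.6 and 15.5 TPM in the control mice, at 15.1, 17.4, 16.3 and 14.8 TPM in the cHet mice and at 15.9, 15.7, 15.6 and 17.0 TPM in the cKO mice. The values of the 3 groups intermingled, and the cHet mice held both the lowest and the highest. The change was 3.06% in cKO against control (interval -4.96% to 11.8%, adjusted p = 0.699). None of the 3 other FGF homologous factors or of the sodium channels Scn1a, Scn2a and Scn8a was called in any comparison.

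Cadps encodes CAPS1, which primes dense-core vesicles for release. It was measured at 151, 149, 143 and 145 TPM in the control mice, at 146, 148, 152 and 140 TPM in the cHet mice and at 142, 147, 152 and 154 TPM in the cKO mice. No group stood above another. With the narrowest interval of the members in this comparison, the change was 1.20% in cKO against control (interval -3.94% to 6.62%, adjusted p = 0.827) and -0.156% in cHet against control (interval -5.23% to 5.19%, adjusted p = 0.985). Cadps2 and the vesicle priming factors Unc13a, Unc13b and Unc13c were not called either.

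Ntrk3 encodes TrkC, the receptor of neurotrophin-3, known from proprioceptive sensory neurons and motor neurons. It was measured at 50.1, 47.7, 47.5 and 47.2 TPM in the control mice, at 55.1, 48.8, 50.1 and 52.8 TPM in the cHet mice and at 48.0, 51.0, 48.2 and 49.2 TPM in the cKO mice. Of the 4 cHet values 3 lay above all control values, and the cKO values overlapped both groups. The change was 7.29% in cHet against control (interval 0.828% to 14.2%, adjusted p = 0.386), 1.98% in cKO against control (interval -4.17% to 8.51%, adjusted p = 0.752) and -4.95% in cKO against cHet (interval -10.7% to 1.14%, adjusted p = 0.389). In cHet against control Ntrk3 was thus 1 of 1724 genes under the unadjusted level, none of which was called.

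Among the other Trk receptors and ligands, Ntf3 did not pass the filter on low values, and Ngfr and Bdnf were not called. Ntrk2, which encodes TrkB, the receptor of BDNF that astrocytes also express in a truncated form, was lower in cKO cords. It was measured at 104, 104, 103 and 103 TPM in the control mice, at 105, 104, 102 and 110 TPM in the cHet mice and at 93.2, 93.2, 97 and 97.8 TPM in the cKO mice. All 4 cKO values lay below the other 8. The level fell by 8.06% against control (interval -12.1% to -3.85%, adjusted p = 0.0250) and fell by 9.39% against cHet (interval -13.4% to -5.25%, adjusted p = 0.0150). The adjusted p against control was 0.0603 without the control library whose Y-linked level was low. Leaving out control replicate 2 or 3 or cKO replicate 1 or 2 also ended that call, at 0.0645, 0.0566, 0.0640 and 0.0793, as did a fit without the trend of variance on level (0.0566). The call against cHet ended without cKO replicate 1 (0.05004) or cKO replicate 2 (0.0552) and in a fit of these 2 groups only (0.0629).

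Dlgap1 encodes GKAP, which ties the PSD-95 family of scaffolds to SHANK proteins below excitatory synapses. It was measured at 35.7, 35.1, 33.8 and 33.8 TPM in the control mice, at 34.7, 36.4, 33.6 and 33.3 TPM in the cHet mice and at 36.2, 35.3, 35.6 and 38.1 TPM in the cKO mice. The cKO values reached higher, with 2 of the 4 above all control values, but the groups overlapped. The change was 4.79% in cKO against control (interval -1.27% to 11.2%, adjusted p = 0.351) and 5.17% in cKO against cHet (interval -0.918% to 11.6%, adjusted p = 0.371), the smallest adjusted p of the members in both comparisons.

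Among 11 further genes of the postsynaptic scaffold, 1 was called higher and 1 lower in cKO against control. Dlg1, which encodes the scaffold SAP97, was measured at 67.2, 68.3, 68.7 and 68.5 TPM in the control mice, at 64.3, 65.6, 60.8 and 61.3 TPM in the cHet mice and at 59.8, 55.3, 59.9 and 55.4 TPM in the cKO mice. The 3 groups did not overlap, with cHet in between. Dlg1 fell by 15.5% in cKO against control (interval -20.2% to -10.6%, adjusted p = 0.00199), a call kept under all 23 alternatives. In cHet against control the change of -7.60% (interval -12.7% to -2.20%) had an adjusted p of 0.303, and in cKO against cHet that of -8.55% (interval -13.6% to -3.20%) one of 0.0766.

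Dlgap3, a close relative of Dlgap1, was measured at 38.1, 36.5, 38.3 and 35.1 TPM in the control mice, at 37.4, 37.0, 36.1 and 37.7 TPM in the cHet mice and at 39.0, 40.8, 41.0 and 43.1 TPM in the cKO mice. All 4 cKO values were above the other 8. It was 10.6% higher in cKO than in control cords (interval 4.15% to 17.5%, adjusted p = 0.0408), but this call was lost under 15 of 23 alternatives, among them both rescalings (adjusted p = 0.0684 and 0.169) and leaving out control replicate 1, 2 or 4 (0.0529, 0.103 and 0.108), cHet replicate 1, 2 or 3 (0.0510, 0.0515 and 0.0510), or cKO replicate 2, 3 or 4 (0.0907, 0.0891 and 0.118). The difference of 10.4% between cKO and cHet cords had an adjusted p of 0.0663. Shank3, another scaffold of the same layer, had an adjusted p of 0.327 for its 13.5% difference in cHet against control (interval 3.03% to 25%). In cKO against control its difference was 16.5% (interval 5.75% to 28.3%, adjusted p = 0.0532), also not called.

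Grik2 encodes GluK2, a subunit of kainate-type glutamate receptors. It was measured at 14.5, 15.7, 13.9 and 15.9 TPM in the control mice, at 16.2, 15.0, 14.2 and 13.6 TPM in the cHet mice and at 16.6, 14.4, 14.7 and 14.7 TPM in the cKO mice. One cKO mouse was the highest of all 12, and the other 3 lay within the control range. The change was 0.483% in cKO against control (interval -9.23% to 11.2%, adjusted p = 0.969) and -1.76% in cHet against control (interval -11.3% to 8.75%, adjusted p = 0.921). The other kainate receptor subunits and their auxiliaries Neto1 and Neto2, 6 genes in all, were not called.

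Counted over all families, 3 of the 48 relatives and partners that passed the filter were called in cKO against control, which is 6.25% of them and below the 9.0% of all tested genes. In cHet against control 0 were called by limma, with 5 at an unadjusted p under 0.05, and in cKO against cHet 1 was called. The median log2 change of the 48 in cKO against control was 0.015, close to the 0.014 of all tested genes.

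**Figure D3:**
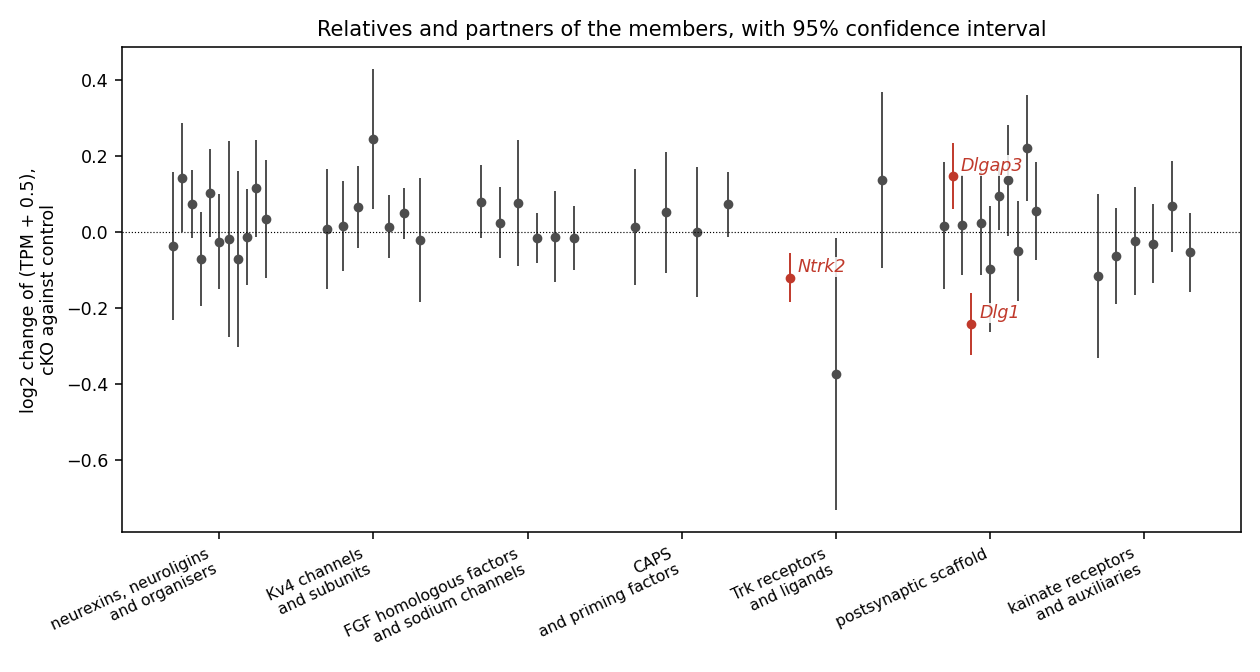
Log2 change of (TPM + 0.5) in cKO against control on the vertical axis, with 95% confidence intervals, for the 48 relatives and partners of the members that passed the filter, grouped by family. Red marks the 3 called genes, Dlg1 (-0.24), Ntrk2 (-0.12) and Dlgap3 (0.15).

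Because the members were named for long introns, all tested genes with a gene model were set out by their longest intron. In cKO against control, genes with a longest intron under 10 kb were called higher 554 times and lower 197 times. Their median log2 change was 0.024 over 8273 genes, and genes without an intron were counted in this class. Genes with a longest intron of 100 kb or more, 812 in number with 7 members among them, had a median of 0.0016. They were called higher 26 times and lower 37 times. The classes between did not stand apart from the long one. The 4911 genes of 10 to 50 kb had a median of 0.0031, with 236 called higher and 190 lower. The 1061 genes of 50 to 100 kb had a median of -0.0013, with 42 called higher and 64 lower. Under rescaling without mitochondrially encoded genes the counts were 296 higher and 328 lower in the short class and 13 higher and 65 lower in the long class, with medians of -0.027 and -0.050. Without control replicate 1 the short class was called higher 435 times and lower 134 times, and the long class higher 21 times and lower 22 times. The share of genes called as deposited was 7.76% in the long class and 9.08% in the short class. It was 8.67% at 10 to 50 kb and 9.99% at 50 to 100 kb. Under rescaling without mitochondrially encoded genes the order turned, with 9.54% in the long and 7.30% in the short class. Most genes of every class were not called, so the absence of calls among the 7 members does not set them apart. No test of the difference between classes was made.

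**Figure D4:**
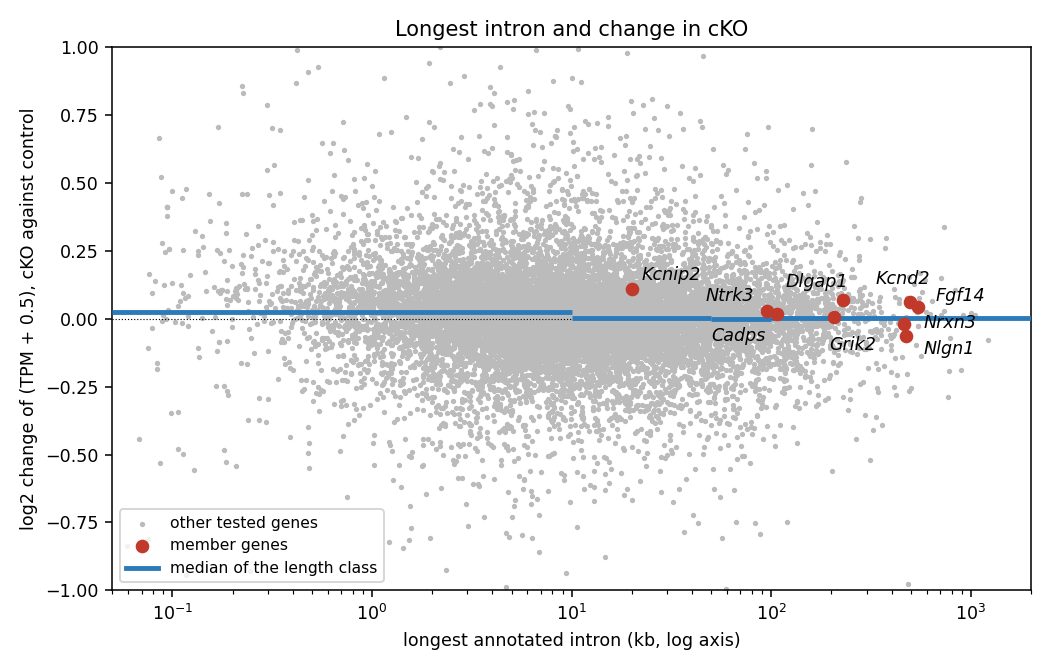
Log2 change of (TPM + 0.5) in cKO against control (vertical axis) by the longest annotated intron in kb (log horizontal axis). Each grey point is a tested gene with an annotated intron, and the 9 members are in red. Blue bars give the median of each of 4 length classes, the shortest of which also includes genes without an intron. The members sit near 0, Kcnip2 alone among the members in the middle of the length range, and 51 genes lie outside the frame.

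In the authors' deposited tables, no member had a q-value under 0.05 by the likelihood ratio test or by the Wald test in any of the 3 comparisons. Of the 17916 genes listed there for cKO against control, 1687 had one by the likelihood ratio test and 1822 by the Wald test. The counts were 674 and 882 of 17847 in cKO against cHet, and 0 and 28 of 17910 in cHet against control. A count of 0 among 9 members does not set them apart from such shares. For cKO against control the authors' deposited table gave Dlgap1 the smallest likelihood ratio q-value of the members, 0.113 with a p of 0.0175. Kcnd2 and Cadps also had a likelihood ratio p under 0.05 in the authors' deposited table, at 0.0257 and 0.0182. The share of all listed genes under that p is not reported here. By limma, 22.8% of tested genes had an unadjusted p under 0.05 in this comparison. The Wald p in the authors' deposited table was 0.0391 for Dlgap1, 0.0507 for Kcnd2 and 0.262 for Cadps. Ntrk3 in cHet against control had a likelihood ratio p of 0.119 in the authors' deposited table.

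Sexes were compared by label with genotype in the model, and 0.00% of tested genes were called, with 902 (5.91%) at an unadjusted limma p under 0.05. None of the 9 members was called or passed the unadjusted level. Dlgap1 was nearest, at 35.9 ± 1.21 TPM (SD, n = 6) in mice labelled male and 34.4 ± 1.20 TPM (SD, n = 6) in those labelled female, a difference of 4.28% (interval -0.111% to 8.86%, adjusted p = 0.845). Among relatives and partners Dpp10 and Kcnd1 had the smallest p, both not called (adjusted p = 0.810 and 0.838). Without the control library whose Y-linked level was low, 10 genes and 0 members were called. No interaction of sex and genotype was called for a member, the smallest adjusted p being 0.891, for Kcnip2 in cHet mice. Without control replicate 1 only 1 control mouse labelled male was left, so only sizes are given for that fit. The Kcnip2 difference between sexes, minus that in control, was then 0.485 on the log2 scale in cHet and 0.382 in cKO mice. With all mice these were 0.369 and 0.266.

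The spread between mice of one genotype was small for most members. The residual SD on the log2 scale was 0.044 for Nrxn3, 0.046 for Cadps and 0.048 for Dlgap1, and more than 91% of tested genes had a larger one. It was 0.095 for Grik2 and 0.14 for Kcnip2, which 57.0% and 37.2% of tested genes exceeded. Only 20.2% of tested genes had a higher mean level than Nrxn3, and 6.31% a higher one than Cadps.

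After group means were removed, the members did not all rise and fall together from mouse to mouse. No background of other gene pairs was set beside them. Over the 36 pairs, Pearson's r of these residuals over 12 mice ranged from -0.67, for Kcnd2 and Ntrk3, to 0.79, for Nlgn1 and Cadps, with a median of 0.14 and 20 pairs above 0. Among 11267 genes that averaged 5 TPM or more, the most similar to Kcnd2 was Bbx (r = 0.98), to Kcnip2 Srl (r = 0.97), to Nlgn1 Pfn1 (r = 0.96), to Fgf14 Sap18b (r = 0.94), to Grik2 Zfp563 (r = 0.94), to Dlgap1 Aldoa (r = 0.94), to Cadps Spry2 (r = 0.93), to Ntrk3 Shank2 (r = 0.93) and to Nrxn3 Heatr6 (r = 0.91). These are descriptions over 12 mice that share libraries and scaling, picked as the highest of many.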

How the data were processed

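RNA of spinal cord from 12 mice was sequenced, per the labels' protocols from Trizol extracts with an Illumina TruSeq kit. The authors deposited a normalized TPM signal per gene and, for each pair of groups, a table with p-values, q-values variance terms and an effect estimate (a score whose log base is not stated), of which only p and q are used. Per the submitters' processing notes kallisto 0.44.0 and sleuth 0.30.0 were used with GRCm38; annotation release, strand of the kit and any batch were not given in the sources used here. Such values keep no read depth, so no counting interval is given.

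Values were compared as log2(TPM + 0.5) with limma 3.58.1 in R 4.3.3 (eBayes with trend, two-sided, all 12 mice, no covariate), with Benjamini-Hochberg adjustment over the 15259 genes that averaged 1 TPM or more and calls at an adjusted p under 0.05. A change in percent is of TPM + 0.5. Values per library for Tardbp were also compared with an exact permutation test. Labels say each library is a separate mouse; replicates are numbered in accession order. The members and lists were chosen with earlier results of these data known. The text names the members, Tardbp, called relatives and partners (or the 2 with the smallest p where none was called) and the gene most like each member; Kcnip3 was named after its values were seen. Gene models and transcripts came from GENCODE M21; no genome sequence was used, so TG runs were searched in transcripts and not in introns. Exons of 4 members (Nrxn3, Nlgn1, Fgf14, Dlgap1) overlap exons of a gene on the other strand that was not tested, and without strand such reads cannot be told apart. Counts over a list include a few genes whose own values are not reported here.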

Additional observations from a re-analysis of the deposited data

Results flagged for a closer look

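The cHet value of Nrxn3 in replicate 1, 55.2 TPM, stood apart from the other 3 cHet values of 51.9 to 52.1 TPM, and the gap was 0.953 of the range of the group. The cKO value of Grik2 in replicate 1, 16.6 TPM, stood apart from the other 3 cKO values of 14.4 to 14.7 TPM, and the gap was 0.876 of the range. Both exceed Dixon's critical value for 4 samples. The criterion was applied to 27 groups of member values, and chance flags about 1 in 20 groups.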

How the results depend on the processing

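No member was called in any comparison under any alternative, over 729 recomputed member values. Of these, 57 changed sign, none larger than 0.052 on the log2 scale. With median-of-ratios rescaling Grik2 was at -0.0063 (cKO against control) and Kcnd2 at -0.0072 (cHet against control). Rescaling without mitochondrially encoded genes gave Cadps -0.035, Fgf14 -0.0078, Ntrk3 -0.024 and Grik2 -0.044 in cKO against control, Nlgn1 -0.029, Kcnd2 -0.052 and Fgf14 -0.024 in cHet against control, and Kcnip2 0.00082 in cKO against cHet, which was 3.2e-05 at a pseudocount of 0.1. A fit with sex as a covariate and without control replicate 1, chosen after the data were seen, gave Grik2 -0.015 in cKO against control and, in cHet against control, Cadps 0.0044 and Dlgap1 6.1e-05.

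Leaving out 1 mouse at a time changed the sign of further values, with ranges in cKO against control of -0.037 to 0.0076 for Nrxn3 and -0.037 to 0.035 for Grik2. In cHet against control they were -0.011 to 0.058 for Nlgn1, -0.021 to 0.030 for Kcnd2, -0.020 to 0.020 for Cadps, -0.014 to 0.061 for Fgf14, -0.031 to 0.011 for Dlgap1 and -0.069 to 0.011 for Grik2. In cKO against cHet they were -0.0024 to 0.041 for Cadps, -0.018 to 0.058 for Fgf14, -0.055 to 0.028 for Kcnip2 and -0.011 to 0.076 for Grik2. By sex they were -0.0013 to 0.034 for Nrxn3, -0.013 to 0.031 for Nlgn1, -0.10 to 0.00030 for Kcnip2 and -0.00097 to 0.065 for Grik2. The causes were not tested.

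Of all tested genes, 1374 were called in cKO against control, and 907 without control replicate 2, 814 without cKO replicate 2 and 890 without cKO replicate 4. The count of 0 in cHet against control became 1 without control replicate 2 and 2 without the filter on low values, and that of 0 by sex became 10 without control replicate 1 and 1 without cKO replicate 1, members not among them. No paired analysis was possible, because each library is a separate mouse and the labels give no litter or batch that would pair them. With 4 mice a group and depth unknown, a member's change within its own interval could not be resolved.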
